A study of Mus musculus with 10 samples.

Results

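The proteasome subunit genes of mouse embryonic stem cells (ESCs) were examined in 10 RNA-seq libraries. Rows were taken by name, as symbols that start with Psma, Psmb, Psmc, Psmd, Psme, Psmf or Psmg followed by a number, which gave 50 of the 24370 symbols in the table. Of these, 49 reached 0.5 TPM in at least 2 libraries (TPM, a transcript level, is a read count divided by gene length and scaled to a fixed total per library). The row left out was Psmb11, a subunit of the thymus proteasome, listed at 0 in all 10 libraries. One of the 49, Psmc3ip, encodes a meiotic recombination factor and was matched by name only, so 48 of them encode proteasome subunits, regulators or assembly factors. They are 7 alpha and 7 beta genes of the standard 20S core, 4 tissue-specific 20S genes, 6 ATPase and 11 non-ATPase genes of the 19S cap, 3 chaperones of 19S assembly, 6 activators or inhibitors and 4 Psmg chaperones of 20S assembly. The row closest to the limit from above was Psmb8, at 0.255 to 2.29 TPM. All 50 rows are annotated as protein-coding genes (GENCODE M21, build GRCm38).

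The 26S proteasome degrades proteins that carry ubiquitin chains. Its 20S core is a barrel of alpha subunits (Psma genes), which form the gated outer rings, and beta subunits (Psmb genes), of which Psmb5, Psmb6 and Psmb7 carry the chymotrypsin-like, caspase-like and trypsin-like sites. The 19S cap binds the core and holds a ring of ATPases (Psmc genes), which unfold substrates, and non-ATPase subunits (Psmd genes), among them the ubiquitin receptor Psmd4 and the deubiquitinase Psmd14. Variant subunits replace standard ones in some cells: Psmb8, Psmb9 and Psmb10 make up the interferon-induced immunoproteasome, and Psma8 belongs to a testis form. In place of 19S the core can bind other activators, namely PA28 (Psme1 and Psme2), PA28 gamma (Psme3) and PA200 (Psme4).

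All samples were mouse ESCs labelled J1, and there were 5 groups with 2 libraries each. WT cells had normal culture. Usp17le OE cells received an expression plasmid for Usp17le, a deubiquitinase of the Usp17l family, followed by puromycin. A hairpin RNA that targets Dux, which encodes a transcription factor active at the 2-cell stage, was put into Dux KD cells, again with puromycin. In Usp17le OE-Dux KD the hairpin went into cells that already overexpressed Usp17le, and in Dux KD-Usp17le OE the plasmid went into cells that already carried the hairpin. The labels give J1 for every sample, whereas the methods of the study name a second line, E3, grown on feeder cells, for part of the work on Usp17l, so the line rests on the labels. Empty-plasmid and control-hairpin cells were not analysed here, and any comparison with WT therefore includes transfection and selection. The study describes RNA-seq replicates of Usp17le overexpression as biological, but the sources used here do not say for each group that its libraries came from separate cultures, so p-values measure the spread between libraries, which may be technical in part. These are bulk samples, in which a change in the share of a cell state and a change per cell cannot be told apart.

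Reads recovered per library ranged from 32188285 to 50457228. Usp17le was 1.77 and 0.649 TPM in the WT libraries, 28.7 and 35.6 TPM in Usp17le OE, 0.466 and 0.424 TPM in Dux KD and 11.1 and 10.6 TPM for Usp17le OE-Dux KD. It was only 0.941 and 1.63 TPM in both libraries with the label Dux KD-Usp17le OE, within the WT range but above both Dux KD libraries. Overexpression relative to WT, as in that label, is thus not seen there. The Usp17l genes share identical stretches in their coding regions and only unique alignments were counted, so the Usp17le level is uncertain in every group. Dux, a repeated gene whose multiply mapped reads were dropped, was 0.118 and 0.259 TPM in WT, 2.05 and 1.87 TPM in Usp17le OE, 0.102 and 0 TPM in Dux KD, 0.435 and 0.416 TPM for Usp17le OE-Dux KD and 0.119 and 0.0542 TPM in both libraries with the label Dux KD-Usp17le OE. Dux in the last of these groups overlaps WT, so its low level does not set these libraries apart as carrying the hairpin, and below they count as hairpin libraries by their label only. Outside Usp17le OE all Dux values were under 0.5 TPM, so the lowering of Dux from WT to Dux KD is barely measured here. The 10 ESC markers were detected in every group, with sums of 9777 to 12512 TPM, and 12 fibroblast feeder markers summed to 90.7 and 92.4 TPM in WT, 32.2 and 32.4 TPM in Usp17le OE, 77.7 and 83.4 TPM in Dux KD and 57.0 and 59.8 TPM for Usp17le OE-Dux KD. They were highest, at 107.9 and 110.0 TPM, in both libraries with the label Dux KD-Usp17le OE, and 1 or 2 of the 12 were listed at 0 in each group but Usp17le OE. Acta2 alone held 49.7 and 46.5 TPM of the sum in WT and 2.12 and 1.81 TPM in Usp17le OE. Sums over 15 markers of 2-cell-like cells, the rare ESC state that transcribes Zscan4 and Dux, were 20.7 to 22.2 TPM in WT, 424 to 466 for Usp17le OE, 3.27 to 4.74 in Dux KD, 84.7 to 86.9 for Usp17le OE-Dux KD and 13.5 to 14.4 in both libraries with the label Dux KD-Usp17le OE. The list includes Usp17la to Usp17le, so the overexpressed gene itself is counted in these sums.

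The unit needs care for this gene family. TPM sums to a fixed total, and genes shorter than 1000 bases held 43.2% and 43.0% of it in WT, 42.4% and 39.5% for Usp17le OE, 31.3% and 28.5% in Dux KD and 30.6% and 32.1% for Usp17le OE-Dux KD. The median change over all genes was 0.26 (log2) in Usp17le OE against WT, by 0.38 in Dux KD against WT and by 0.29 for Usp17le OE-Dux KD against Usp17le OE. The 14 genes of the 20S core are short, 731 to 1591 bases with a median of 1016.5, the 17 genes of the 19S core are 1277 to 3256 bases with a median of 1564, and the median over the 14706 genes tested is 2677.5 bases. Results are therefore given as deposited, after each library was scaled by the median of its gene ratios ("after scaling"), and, where it matters, after the trend of each library along gene length was removed ("after length correction"). A change is a log2 difference of group means of log2(TPM + 0.1) ± SE. A gene is said to have risen or fallen where the limma test, two-sided and adjusted by Benjamini-Hochberg across the genes tested in that comparison, gave an adjusted p under 0.05.

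The standard subunits were abundant. In the first WT library the 14 genes of the 20S core ran from 138 to 953 TPM with a median of 548, and the 17 genes of the 19S core from 182 to 458 TPM with a median of 317. Psmb5 was the lowest 20S gene there and Psmb6 the highest. The 49 rows together made up 1.46% and 1.46% of all TPM in WT, 1.68% and 1.73% for Usp17le OE, 1.52% and 1.56% in Dux KD, 1.45% and 1.44% for Usp17le OE-Dux KD, and 1.47% and 1.46% in both libraries with the label Dux KD-Usp17le OE.

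The balance of core to cap transcripts separated the libraries labelled with the Dux hairpin from those without it. The summed 20S core was 7985 and 7968 TPM in WT, 9339 and 9528 for Usp17le OE, 7231 and 7254 in Dux KD, 6698 and 6689 for Usp17le OE-Dux KD, and 7326 and 7204 in both libraries with the label Dux KD-Usp17le OE. Summed 19S transcripts were 5237 and 5287 TPM in WT, 5993 and 6349 for Usp17le OE, 6499 and 6828 in Dux KD, 6412 and 6299 for Usp17le OE-Dux KD, and 5891 and 5980 in both libraries with the label Dux KD-Usp17le OE, so they were higher in Dux KD than in WT while Usp17le OE and Usp17le OE-Dux KD overlapped. The ratio of the sums, which no scaling of a whole library can change, was 1.52 ± 0.0125 (SD, n = 2) in WT and 1.53 ± 0.0407 for Usp17le OE, whose ranges overlap. It was 1.09 ± 0.0355 in Dux KD, 1.05 ± 0.0122 for Usp17le OE-Dux KD and 1.22 ± 0.0275 in both libraries with the label Dux KD-Usp17le OE, and all 6 libraries labelled with the hairpin lay below all 4 without it, as did the 4 of Dux KD and Usp17le OE-Dux KD alone. For 2 against 2 libraries an exact two-sided permutation test cannot give a p below 0.333, so no test of the ratio is given. Genes under 1000 bases also took a smaller part of TPM in the libraries labelled with the hairpin (28.5% to 35.7%) than without it (39.5% to 43.2%), so the shift of the ratio and the shift along gene length moved together.

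**Figure D1:**
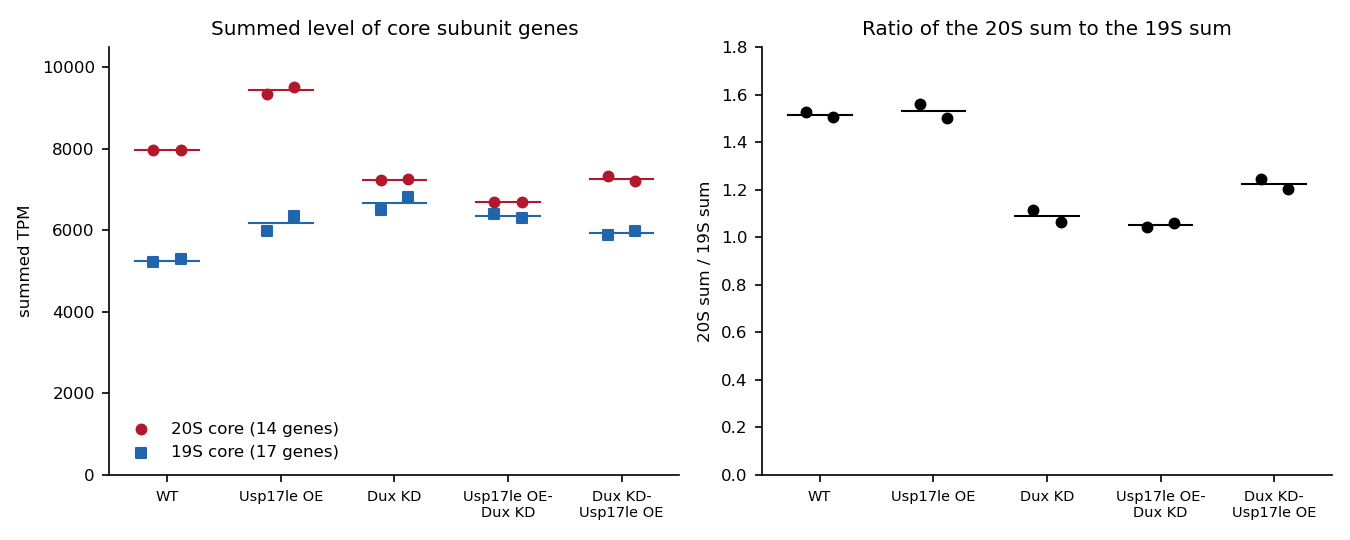
Left, summed TPM of the 14 genes of the 20S core (circles) and of the 17 genes of the 19S core (squares), and right, the ratio of the sums, in each of the 10 libraries by group, on axes that start at 0 with a line at each group mean. The ratio lies between 1.50 and 1.56 in the 4 libraries without the Dux hairpin and between 1.04 and 1.24 in the 6 libraries labelled with it.

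The first comparison asked how proteasome transcripts differ with Usp17le overexpression. As deposited, most subunits of both complexes rose a little, but after scaling 9 genes rose, namely Psma6 and Psmb2 of the 20S core, Psmc1, Psmc3, Psmc4, Psmd6, Psmd7 and Psmd12 of the 19S core, and Psme4, while the immunoproteasome subunits fell under every setting tried. Among the 49 rows, 30 rose (61.2%) and 6 fell (12.2%) as deposited, against 45.5% and 20.9% of all genes tested. After scaling 9 rose and 21 fell, against 33.0% and 32.9% of all genes, and after length correction 15 rose and 13 fell, against 32.9% and 33.2%. In the 20S core 11 of 14 rose as deposited with a median change of 0.19, but 2 rose and 4 fell after scaling with a median of -0.07. In the 19S core, 12 of 17 rose and 2 fell as deposited, also with a median of 0.19, whereas 6 rose and 7 fell after scaling. The summed 2-cell-like markers, which include Usp17le itself, were at most 22.2 TPM in WT and at least 424 TPM in Usp17le OE. Summed fibroblast markers were at least 90.7 TPM in WT and at most 32.4 TPM in Usp17le OE. Acta2 was the largest part of the WT sum, at 49.7 and 46.5 TPM in WT and 2.12 and 1.81 TPM in Usp17le OE. Some listed markers went the other way, among them Col1a2, at 0.111 and 0.102 TPM in WT and 0.525 and 0.787 TPM in Usp17le OE. The part of either marker set in the changes of proteasome genes was not tested.

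The 20S genes differed from one another in this comparison. Psmb2, a structural beta subunit, was 370.4 and 338 TPM in WT and 531 and 534 TPM in Usp17le OE, groups that do not overlap. Its change of 0.59 ± 0.05 (adjusted p = 4.83e-07) was the largest of the beta subunits and stood at 0.33 after scaling. Psma6, the alpha subunit that changed most, was 718 and 720.0 TPM in WT and 909 and 942 TPM in Usp17le OE, a change of 0.36 ± 0.04 (adjusted p = 4.09e-06) that was 0.10 after scaling. At the other end, the alpha subunit Psma4 had a change of 0.10 (adjusted p = 0.0577, -0.17 after scaling) and passed the test only after scaling (adjusted p = 0.00255). The catalytic subunits moved little: Psmb5 had a change of 0.11 ± 0.08 (adjusted p = 0.215, -0.15 after scaling) and Psmb7 of 0.05 ± 0.04 (adjusted p = 0.243, -0.21 after scaling), and neither passed the test as deposited, while Psmb7 did so after scaling (adjusted p = 0.000315). Psmb6 rose by 0.18 ± 0.04 (adjusted p = 0.00156) as deposited, but its value was -0.08 after scaling.

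The 19S cap changed unevenly. Psmc4, a subunit of the ATPase ring, was 208 and 206 TPM in WT and 341 and 353 TPM in Usp17le OE, a rise of 0.75 ± 0.04 or 1.68-fold (adjusted p = 1.34e-08) that was still 0.49 after scaling. Psmc5, another ATPase, was 435 and 439 TPM in WT and 402 and 423 TPM in Usp17le OE, the lowest value of the ring at -0.08 (adjusted p = 0.14), which passed the test only after scaling (-0.35, adjusted p = 6.24e-06). Psmd6, a lid subunit, rose from 208 and 214 TPM to 314 and 322 TPM, a change of 0.59 ± 0.05 (adjusted p = 3.52e-07) and of 0.33 after scaling. Against the direction of their class, the lid subunit Psmd11 and the base scaffold Psmd1 fell. Psmd11 was 182 and 188 TPM in WT and 136 and 150.4 TPM in Usp17le OE (-0.37 ± 0.06, adjusted p = 7.75e-05, -0.63 after scaling), and Psmd1 was 377 and 378 TPM and 299 and 330.4 TPM (-0.26 ± 0.06, adjusted p = 0.00204, -0.53 after scaling). Exons of Psmd1 overlap those of 2 other genes, Htr2b on the opposite strand and Gm21972, and the counting did not separate strands, so its value is uncertain. The deubiquitinase Psmd14 had 363 and 362 TPM in WT and 386 and 428 TPM in Usp17le OE. Its change of 0.17 (adjusted p = 0.0137) turned to -0.10 after scaling and missed the threshold without WT replicate 1 (adjusted p = 0.0571), WT replicate 2 (0.0598) or Usp17le OE replicate 2 (0.14) in the same limma test.

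Next, Dux KD was set against WT to ask what the hairpin changed in cells without the plasmid. After scaling, which sets changes relative to the median gene, all 14 genes of the 20S core fell and the 19S core was mixed, but after length correction 6 of the 14 rose and 6 fell. As deposited 20 of the 49 rows rose (40.8%) and 17 fell (34.7%), against 51.4% and 10.7% of all genes tested. After scaling 9 rose (18.4%) and 33 fell (67.3%), against 28.0% and 25.7%, and after length correction 24 rose and 18 fell, against 26.5% and 21.7%. In the 20S core 7 of 14 fell as deposited, with a median change of -0.10, and all 14 fell after scaling, with a median of -0.52. Genes with lengths in the range of the 20S core had a median of -0.40 after scaling. In the 19S core 13 of 17 rose and 2 fell as deposited with a median of 0.45, 6 rose and 7 fell after scaling with a median of 0.04, and 11 rose and 4 fell after length correction. The median over genes in the 19S length range was -0.06 after scaling.

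The largest falls of the standard core were in the alpha ring. Psma3 was 491 and 499 TPM in WT and 343 and 336 TPM in Dux KD, and Psma7 was 419.5 and 419 TPM and 313 and 306 TPM. For each gene the groups are far apart relative to the spread within them. Psma3 lies on chromosome 12 (70974621 to 70996347, GRCm38) and Psma7 on chromosome 2 (180036374 to 180042433). The change was -0.54 ± 0.04 for Psma3 (adjusted p = 2.49e-07, -0.96 after scaling) and -0.44 ± 0.04 for Psma7 (adjusted p = 8.79e-07, -0.85 after scaling), and both kept their direction after length correction, at -0.69 and -0.64. Psma2, also in the alpha ring, had a change of 0.07 as deposited (adjusted p = 0.182), which was -0.34 after scaling and 0.23 after length correction. Among the beta subunits Psmb1 fell most, from 788 and 764 TPM to 629.5 and 649.6 TPM (-0.28 ± 0.04, adjusted p = 4.38e-05, -0.69 after scaling). Psmb3 had the highest value as deposited, at 0.07 (adjusted p = 0.112), -0.34 after scaling and 0.44 after length correction. The catalytic genes split. Psmb6 was 953 and 955 TPM in WT and 787 and 813 TPM in Dux KD and fell by 0.25 (adjusted p = 0.000105). Psmb5 and Psmb7 had changes of 0.05 (adjusted p = 0.609) and 0.06 (adjusted p = 0.201) as deposited, but of -0.36 and -0.35 after scaling.

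Within the cap, the lid subunit Psmd3 rose most. It was 251 and 249 TPM in WT and 437 and 476 TPM in Dux KD, a 1.83-fold rise (0.87 ± 0.05, adjusted p = 3.95e-08) that was 0.46 after scaling and 0.53 after length correction. Psmd3 lies on chromosome 11 (98682554 to 98695979), where its exons overlap Gm12356 on the opposite strand. Psmc4 again led the ATPases, at 335 and 332 TPM against 208 and 206 TPM in WT (0.69 ± 0.04, adjusted p = 4.39e-08; 0.28 after scaling). Only 2 genes of the 19S core fell as deposited. Psmc6, an ATPase, was 458 and 481 TPM in WT and 390.1 and 407 TPM in Dux KD (-0.24 ± 0.06, adjusted p = 0.00457), and Psmd14, the deubiquitinase, was 363 and 362 TPM and 295 and 297 TPM (-0.29 ± 0.05, adjusted p = 0.000324). After scaling these stood at -0.65 and -0.70.

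Adding the hairpin to overexpressing cells, Usp17le OE-Dux KD against Usp17le OE, asked whether Dux knockdown acts in the same way on that background. Usp17le itself was lower in Usp17le OE-Dux KD, at 11.1 and 10.6 TPM against 28.7 and 35.6 TPM in Usp17le OE. The 2-cell-like markers summed to 84.7 to 86.9 TPM against 424 to 466 TPM. A change with the hairpin and a change with lower Usp17le cannot be told apart here. Here all 14 genes of the 20S core fell, both as deposited (median -0.52) and after scaling (median -0.83), and 10 fell and 1 rose after length correction (median -0.28). Over the 49 rows 12 rose (24.5%) and 30 fell (61.2%) as deposited, against 45.7% and 18.6% of all genes tested. After scaling 6 rose and 37 fell, against 29.7% and 30.5%, and after length correction 10 rose and 28 fell, against 29.7% and 28.1%. The 19S core was mixed as deposited, with 6 rising and 7 falling (median -0.03), but leaned lower after scaling, with 4 rising and 12 falling (median -0.33), and after length correction, with 5 rising and 9 falling. After scaling, the median was -0.37 over genes in the 20S length range and -0.06 over genes in the 19S length range.

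The alpha subunits fell by 0.25 to 0.85 on the log2 scale and the beta subunits by 0.13 to 0.66. Psma5 was 658 and 665 TPM in Usp17le OE and 382 and 352 TPM for Usp17le OE-Dux KD, the largest fall of the alpha ring (-0.85 ± 0.05, adjusted p = 3.27e-08). Psma3, Psma6 and Psma7 had nearly the same change, -0.83, -0.83 and -0.84, whereas Psma1 fell least (-0.25, adjusted p = 0.000149, -0.56 after scaling). For example, Psma7 went from 479 and 478 TPM to 268 and 267 TPM. After length correction 6 of the 7 alpha genes still fell, Psma7 at -0.92 and Psma5 at -0.78. Of the beta subunits, Psmb1 fell most, from 842 and 858 TPM to 533 and 539 TPM (-0.66 ± 0.04, adjusted p = 2.77e-08), and the catalytic subunit Psmb6 went from 1062 and 1099 TPM to 716 and 739.8 TPM (-0.57 ± 0.04, adjusted p = 1.05e-07, -0.87 after scaling). The other catalytic subunits had the smallest changes. Psmb7 fell by 0.13 (adjusted p = 0.0091) as deposited but was 0.07 after length correction. Psmb5, at 163 and 152 TPM and then 141 and 134 TPM, had a change of -0.19 (adjusted p = 0.0431, -0.50 after scaling), which was 0.06 after length correction. The Psmb7 call was lost without Usp17le OE replicate 2 (adjusted p = 0.0531), and the Psmb5 call without Usp17le OE replicate 1 (0.223), Usp17le OE-Dux KD replicate 1 (0.0677) or Usp17le OE-Dux KD replicate 2 (0.192), in the same limma test.

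Of the 7 cap genes that fell, Psmc6 and Psmd14 had the lowest values. Psmc6 was 504 and 573 TPM in Usp17le OE and 329.7 and 325 TPM after the hairpin (-0.72 ± 0.06, adjusted p = 6.39e-07), and Psmd14 was 386 and 428 TPM and 267 and 251 TPM (-0.65 ± 0.05, adjusted p = 3.4e-07). In the opposite direction, Psmc5 went from 402 and 423 TPM to 544 and 544 TPM (0.40 ± 0.05, adjusted p = 1.19e-05; 0.10 after scaling). Psmd3 went from 285 and 277 TPM to 517 and 482 TPM (0.83 ± 0.05, adjusted p = 4.06e-08; 0.52 after scaling). Psmd12, a lid subunit, had a change of -0.13 (adjusted p = 0.0257, -0.44 after scaling) that did not pass the limma test without Usp17le OE replicate 2 (adjusted p = 0.189) or Usp17le OE-Dux KD replicate 2 (0.151).

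**Figure D2:**
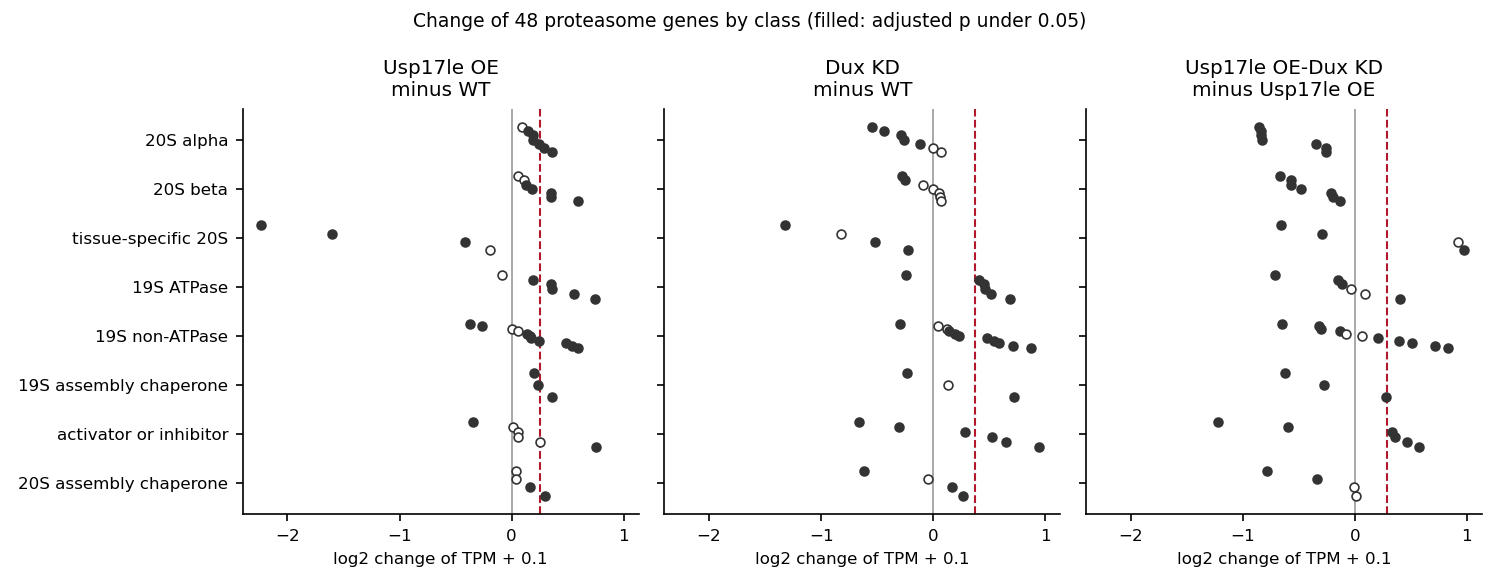
Log2 change of TPM + 0.1 as deposited for 48 proteasome genes by class in 3 comparisons, 1 point per gene, filled where the adjusted p was under 0.05, with a dashed line at the median of all genes tested. In Usp17le OE-Dux KD relative to Usp17le OE all 14 genes of the 20S core are below 0, as they also were after scaling, whereas the 17 genes of the 19S core run from -0.72 to 0.83.

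Gene length and complex overlap only in part, so both sets were also read in the stretch of lengths that they share, 1277 to 1591 bases. It holds 2 genes of the 20S core, Psma3 and Psma7, and 9 of the 19S core. After scaling, the median of the 20S pair was -0.90 in Dux KD against WT and -1.14 for Usp17le OE-Dux KD against Usp17le OE. The 9 genes of the 19S core had a median of -0.27 (-0.70 to 0.28) in the first comparison, where 2 rose and 6 fell, and of -0.41 (-1.02 to 0.10) in the second, where 1 rose and 8 fell. The lowest values of the 19S genes thus came close to the 20S pair, and with 2 genes on one side no test was made. Across all genes tested, the median change in Dux KD against WT ran from -0.75 in the shortest of 25 bins (median length 398 bases) to 0.67 in the longest (median length 9489 bases), and from -0.57 to 0.56 for Usp17le OE-Dux KD against Usp17le OE.

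**Figure D3:**
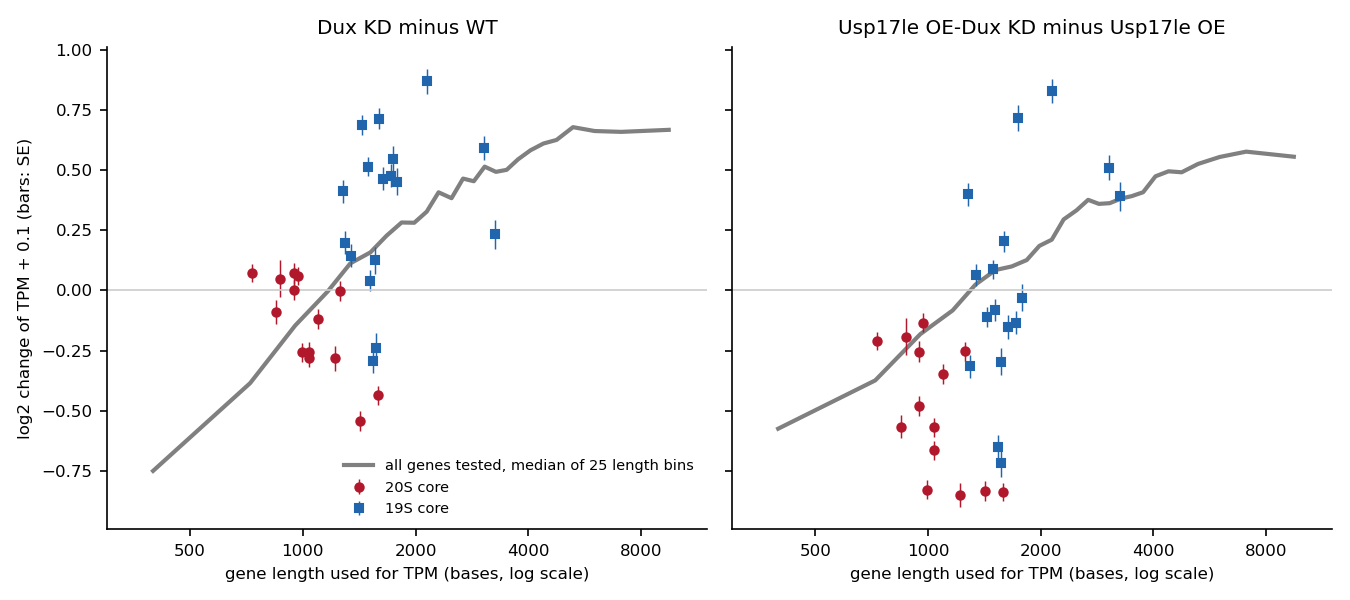
Log2 change of TPM + 0.1 as deposited, with bars for the SE, against gene length in bases (log axis) for the genes of the 20S core (circles) and 19S core (squares) in Dux KD against WT and in Usp17le OE-Dux KD relative to Usp17le OE. The grey line, the median of all genes tested in 25 bins of length, climbs from -0.75 to 0.67 and from -0.57 to 0.56, and the 20S genes sit toward the short end.

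The reverse order, the plasmid added to Dux KD cells, was set against Dux KD. Since Usp17le was near the WT level in both libraries with the label Dux KD-Usp17le OE, directions here are those of the labels only. Few rows changed: 3 of 49 rose and 10 fell as deposited, against 2.88% and 8.30% of all genes tested, and after scaling 6 rose and 2 fell, against 3.41% and 1.75%. As deposited the falls were mostly in the cap, where 9 of the 17 genes of the 19S core fell (median -0.18), but 2 fell after scaling (median -0.08). Psmc4 went from 335 and 332 TPM to 277 and 283 TPM (-0.25 ± 0.04, adjusted p = 0.00788; -0.15 after scaling). The 19S base scaffold Psmd2 went from 477 and 519 TPM to 425 and 424 TPM (-0.23 ± 0.05, adjusted p = 0.0198, -0.13 after scaling). In the 20S core Psma3 rose from 343 and 336 TPM to 375 and 383 TPM (0.16 ± 0.04, adjusted p = 0.0308; 0.26 after scaling). These counts hang on single libraries. In limma, 1 rose and 1 fell without Dux KD replicate 2, and 1 rose without Dux KD-Usp17le OE replicate 2. Without Dux KD-Usp17le OE replicate 1 limma called 0 rises and 0 falls (4 and 11 at an unadjusted p under 0.05), and without replicate 2 it called 0 falls (15 at an unadjusted p under 0.05). In voom on the recovered reads 8 rose. Leaving out a library of another group also ended the call of Psma3, for WT replicates 1 and 2 (adjusted p = 0.0533 and 0.0531) and Usp17le OE-Dux KD replicates 1 and 2 (both 0.0504).

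Both double groups were also compared with WT, with which the comparisons above share their WT libraries. In Usp17le OE-Dux KD, 17 of the 49 rows rose and 20 fell as deposited, against 59.5% and 11.0% of all genes tested. After scaling 3 rose and 41 fell, against 30.1% and 30.8%, and after length correction 11 rose and 22 fell, against 28.2% and 27.4%. In the 20S core 8 fell and 1 rose as deposited, and all 14 fell after scaling. Psma3 was 309 and 308 TPM for Usp17le OE-Dux KD against 491 and 499 TPM in WT (-0.68 ± 0.04, adjusted p = 2.31e-08, -1.25 after scaling). Psmb3 was the 20S gene that rose, by 0.15 (adjusted p = 0.00365) as deposited, but it stood at -0.42 after scaling. Psmd3 stood at 517 and 482 TPM against 251 and 249 TPM in WT (2-fold; 1.00 ± 0.05, adjusted p = 6.71e-09; 0.43 after scaling), while Psmc6 (-0.52, adjusted p = 7.42e-06, -1.09 after scaling) and Psmd14 (-0.49, adjusted p = 3.17e-06, -1.05 after scaling) fell.

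In both libraries with the label Dux KD-Usp17le OE, 16 of 49 rows rose and 15 fell against WT as deposited, where 44.8% and 7.62% of all genes tested did. After scaling 6 rose and 34 fell, against 23.4% and 21.2%, and after length correction 15 rose and 18 fell, against 21.4% and 17.6%. The 20S core had 7 falls as deposited and 13 after scaling. Psma3 changed by -0.38 ± 0.04 (adjusted p = 8.73e-06, -0.70 after scaling) and Psmd3 by 0.67 ± 0.05 (adjusted p = 7.51e-07, 0.35 after scaling).

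Between the double groups, in both libraries with the label Dux KD-Usp17le OE set beside Usp17le OE-Dux KD, more rows rose than fell. As deposited 15 of 49 rows rose and 8 fell, where 7.97% and 37.4% of all genes tested did, and after scaling 36 rose, where 22.8% of all genes rose and 16.3% fell. Of the 20S core, 7 rose as deposited (median 0.13) and all 14 after scaling (median 0.39). Psma3 was 375 and 383 TPM against 309 and 308 TPM (0.30 ± 0.04, adjusted p = 0.00016, 0.55 after scaling) and Psmc6 407 and 375 TPM against 329.7 and 325 TPM (0.26 ± 0.06, adjusted p = 0.00525, 0.51 after scaling). The Psmc6 call was lost without Dux KD-Usp17le OE replicate 1 (adjusted p = 0.0635 in limma). Psmd3 went the other way as deposited (-0.33, adjusted p = 0.000331), but had a change of -0.08 after scaling that did not pass the test.

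**Figure D4:**
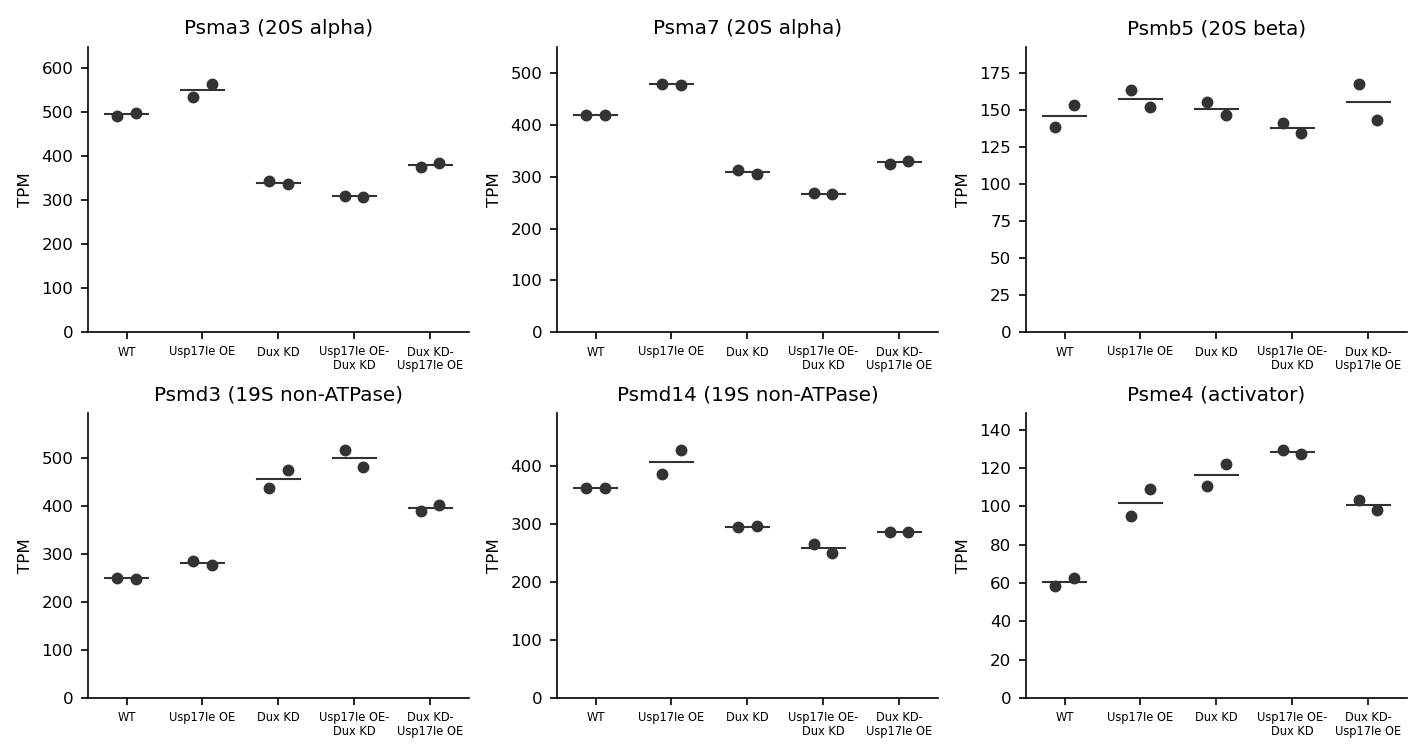
TPM of Psma3, Psma7 and Psmb5 (20S), Psmd3 and Psmd14 (19S) and Psme4 (PA200) in each of the 10 libraries by group, on axes that start at 0 with a line at each group mean. Psma3 runs from 308 to 564 TPM and is lowest in Usp17le OE-Dux KD, whereas Psmd3 runs from 248 to 517 TPM and is highest there.

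Of the 4 tissue-specific 20S genes measured, 3 fell in Usp17le OE against WT as deposited and all 4 after scaling, and 3 fell in Dux KD against WT under both. Over all genes tested, 20.9% fell in Usp17le OE as deposited and 32.9% after scaling, and 10.7% and 25.7% in Dux KD. Psmb9, a catalytic subunit of the immunoproteasome, was 12.9 and 13.1 TPM in WT, 3.80 and 4.71 TPM in Usp17le OE, 5.13 and 5.16 TPM in Dux KD, 10.7 and 6.61 TPM for Usp17le OE-Dux KD and 6.80 and 7.22 TPM in both libraries with the label Dux KD-Usp17le OE. Both WT libraries were above all others. It fell to 0.33 of the WT level in Usp17le OE (-1.60 ± 0.19, adjusted p = 1.02e-05) and to 0.4 in Dux KD (-1.32 ± 0.19, adjusted p = 5.18e-05), and these changes were -1.86 and -1.73 after scaling. The hairpin in overexpressing cells had the opposite sign, a rise of 0.98 ± 0.19 (adjusted p = 0.000608), which missed the threshold in voom on the recovered reads (0.66, adjusted p = 0.0504). Without Usp17le OE-Dux KD replicate 1, the higher library, this change was 0.63 in limma (adjusted p = 0.00524). The values rest on 218 and 242 reads in WT and 59 and 75 reads in Usp17le OE. Psmb9 lies on chromosome 17 (34181987 to 34187764, mm10) with exons that overlap those of the transporter gene Tap1 on the opposite strand. Strand was ignored, and the default settings leave out reads that overlap both genes, so its level is uncertain. Tap1 also fell in Usp17le OE (-0.95 ± 0.19, adjusted p = 0.00093).

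Psmb8, the second catalytic immunoproteasome subunit, was near the lower limit of detection. It was 1.33 and 2.29 TPM in WT (34 and 64 reads) and 0.255 and 0.331 TPM in Usp17le OE (6 and 8 reads), and its change of -2.24 ± 0.47 passed the test (adjusted p = 0.00107). In Dux KD it was 0.846 and 1.05 TPM (-0.83 ± 0.47, adjusted p = 0.147), which did not pass. Its change in Usp17le OE-Dux KD against WT, -1.32 ± 0.47 (adjusted p = 0.0244), no longer passed the limma test without WT replicate 2 (adjusted p = 0.182) or Usp17le OE-Dux KD replicate 1 (0.242). For Psmb9 in the same comparison, a change of -0.62 (adjusted p = 0.00974, -1.19 after scaling) did not pass without Usp17le OE-Dux KD replicate 2 (-0.28, adjusted p = 0.132), was -0.97 without replicate 1, and did not pass after length correction (-0.43, adjusted p = 0.096).

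Psmb10, the third, was the most abundant, at 64.9 and 56.4 TPM in WT, 46.3 and 44.2 TPM in Usp17le OE, 43.3 and 41.1 TPM in Dux KD, 36.8 and 37.0 TPM for Usp17le OE-Dux KD and 48.6 and 48.1 TPM in both libraries with the label Dux KD-Usp17le OE. It fell in Usp17le OE (-0.42 ± 0.07, adjusted p = 0.000226, -0.68 after scaling), in Dux KD (-0.52 ± 0.07, adjusted p = 3.79e-05, -0.93 after scaling) and, from Usp17le OE, in Usp17le OE-Dux KD (-0.29 ± 0.07, adjusted p = 0.00309, -0.60 after scaling). Taking the 3 immunoproteasome genes as a share of all catalytic beta transcripts, 4.42% and 4.02% were of this type in WT, 2.65% and 2.53% for Usp17le OE, 3.03% and 2.87% in Dux KD, 3.22% and 2.98% for Usp17le OE-Dux KD and 3.39% and 3.54% in both libraries with the label Dux KD-Usp17le OE. Both WT libraries exceeded the other 8.

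Psma8, the testis alpha subunit, was 27.9 and 28.1 TPM in WT, 22.8 and 26.3 TPM in Usp17le OE, 22.5 and 25.4 TPM in Dux KD, 15.5 and 15.4 TPM for Usp17le OE-Dux KD and 28.1 and 28.5 TPM in both libraries with the label Dux KD-Usp17le OE. The low group was Usp17le OE-Dux KD, which fell from Usp17le OE by 0.66 (SE 0.09, adjusted p = 2.41e-05) and lay below both libraries with the label Dux KD-Usp17le OE (their change against it was 0.87 ± 0.09, adjusted p = 1.52e-05). In Usp17le OE its change of -0.19 (adjusted p = 0.0651, -0.45 after scaling) did not pass the test as deposited but did after scaling (adjusted p = 0.000132). Its fall in Dux KD against WT (-0.22, adjusted p = 0.0371) was lost without Dux KD replicate 1, where the value was -0.14 (adjusted p = 0.258 in limma).

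**Figure D5:**
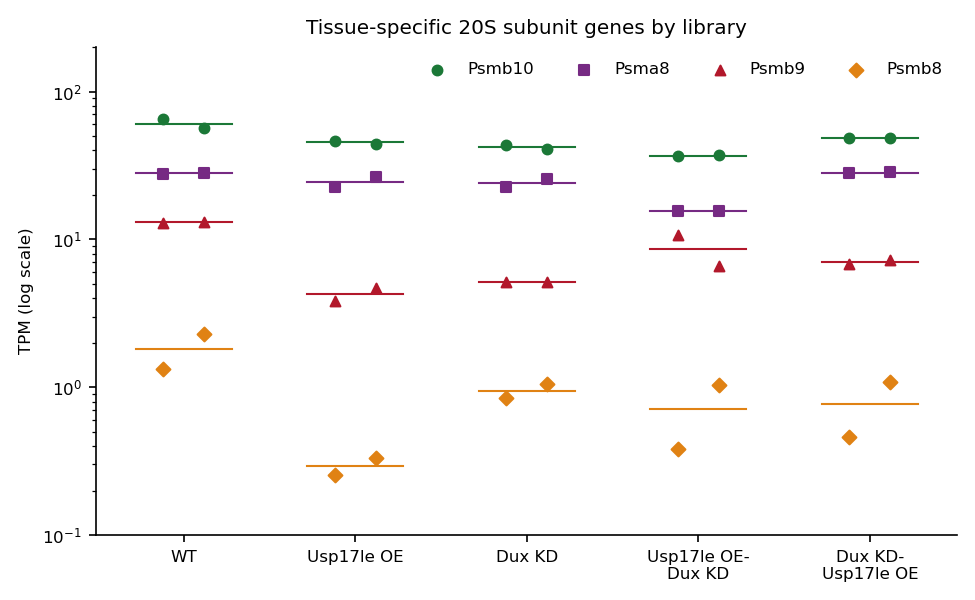
TPM (log axis) of the tissue-specific 20S subunits Psmb8, Psmb9, Psmb10 and Psma8 in each of the 10 libraries by group, with a line at each group mean. Psmb9 is near 13 TPM in both WT libraries and between 3.80 and 10.7 TPM in the other 8, and Psma8 is lowest, near 15.5 TPM, in Usp17le OE-Dux KD.

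Of the 6 activator and inhibitor genes, 1 rose and 1 fell in Usp17le OE against WT (1 and 4 after scaling), and 4 rose and 2 fell in Dux KD against WT (2 and 2 after scaling). Of all genes tested, 45.5% rose and 20.9% fell in Usp17le OE against WT (33.0% and 32.9% after scaling), and 51.4% and 10.7% in Dux KD against WT (28.0% and 25.7% after scaling). Psme4, which encodes the nuclear activator PA200, was 58.3 and 62.5 TPM in WT, 94.8 and 109 TPM in Usp17le OE, 110.5 and 122 TPM in Dux KD, 129 and 127 TPM for Usp17le OE-Dux KD and 103 and 98.0 TPM in both libraries with the label Dux KD-Usp17le OE, so WT was the lowest group. It rose 1.68-fold in Usp17le OE (0.75 ± 0.07, adjusted p = 1.69e-06), 1.92-fold in Dux KD (0.94 ± 0.07, adjusted p = 2.79e-07) and 2.12-fold in Usp17le OE-Dux KD (1.09 ± 0.07, adjusted p = 5.08e-08), and was 0.49, 0.53 and 0.52 after scaling in these comparisons. After length correction the values were 0.38, 0.29 and 0.17, as Psme4 is the longest of the 49 rows at 6442 bases. Psme3, the PA28 gamma gene, was 173 and 177 TPM in WT, 174 and 179 TPM in Usp17le OE, 275 and 274 TPM in Dux KD and 264 and 260.0 TPM for Usp17le OE-Dux KD, a rise with the hairpin both without the plasmid (0.65 ± 0.04, adjusted p = 7.89e-08, 0.24 after scaling) and with it (0.57 ± 0.04, adjusted p = 1.86e-07, 0.27 after scaling).

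Psme1 and Psme2, whose products share the PA28 ring, had opposite signs in Dux KD as deposited. Psme1 was 129.8 and 126 TPM in WT, 103 and 98.6 TPM in Usp17le OE and 152 and 159.6 TPM in Dux KD. It fell in Usp17le OE (-0.35 ± 0.05, adjusted p = 7.4e-05, -0.61 after scaling) and rose as deposited in Dux KD (0.28, adjusted p = 0.000397), where it was -0.13 after scaling. Psme2 was 139 and 141 TPM in WT, 149.9 and 142 TPM in Usp17le OE and 117 and 110.1 TPM in Dux KD, and fell with the hairpin (-0.30 ± 0.05, adjusted p = 0.000241, -0.71 after scaling). Psme2b, a near-identical copy of Psme2 inside another gene, had the largest fall of the rows outside both cores when the hairpin was added to overexpressing cells (-1.22 ± 0.11, adjusted p = 8.43e-07), but reads shared by the copies were dropped and its level is uncertain. Psmf1, the inhibitor PI31, was 18.6 and 19.7 TPM in WT and 25.4 and 30.1 TPM in Dux KD (0.53 ± 0.09, adjusted p = 0.000153; 0.12 after scaling).

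The 4 Psmg genes encode chaperones of 20S assembly, of which 2 rose in Usp17le OE as deposited while 2 fell after scaling, and 2 rose and 1 fell in Dux KD as deposited while all 4 fell after scaling. The shares of all genes tested that rose and fell were 45.5% and 20.9% in Usp17le OE (33.0% and 32.9% after scaling) and 51.4% and 10.7% in Dux KD (28.0% and 25.7% after scaling), so rises of 2 in 4 were near the background. Among them Psmg4 was 119 and 114 TPM in WT, 126 and 114 TPM in Usp17le OE, 77.1 and 75.1 TPM in Dux KD and 73.1 and 66.1 TPM for Usp17le OE-Dux KD. It fell with the hairpin from both backgrounds (-0.61 ± 0.07, adjusted p = 7.55e-06, and -0.78 ± 0.07, adjusted p = 9.54e-07). It is also the shortest of the 49 rows, at 554 bases, and after length correction these changes were -0.01 and -0.30. Psmg1, which works with Psmg2, was 221 and 213 TPM in WT and 257 and 265 TPM in Dux KD and rose by 0.26 ± 0.05 (adjusted p = 0.000468) as deposited, with -0.15 after scaling. Of the chaperones of the 19S base, Psmd5 rose in Dux KD (0.72 ± 0.06, adjusted p = 4.45e-07; 0.31 after scaling) and Psmd10 fell (-0.23 ± 0.07, adjusted p = 0.0106, -0.65 after scaling). In Usp17le OE-Dux KD relative to Usp17le OE, Psmd5 rose by 0.28 (adjusted p = 0.00129) as deposited but was -0.03 after scaling. The name match Psmc3ip fell in Dux KD against WT (-0.41 ± 0.07, adjusted p = 0.000127, -0.82 after scaling).

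Whether the hairpin had a different effect with the plasmid was tested gene by gene as the change in overexpressing cells minus the change in cells without the plasmid. The change without the plasmid starts from WT, which had normal culture, so it includes a first transfection and selection. The other change starts from cells already selected. A different hairpin effect and this unlike start cannot be told apart. For 32 of the 49 rows this difference was below 0 and for 2 above it at an adjusted p under 0.05, against 28.2% and 15.8% of all genes tested, and after scaling the counts were 24 and 5, against 23.7% and 20.6%. The median gene stood at -0.11. Of the 20S core 13 were below 0, with a median of -0.32, and of the 19S core 10, with a median of -0.42. Psmc4, which rose in Dux KD against WT and fell by 0.11 for Usp17le OE-Dux KD against Usp17le OE, had the lowest value at -0.80 ± 0.06 (adjusted p = 1.02e-06; -0.69 after scaling). Psma6 was the lowest of the alpha ring at -0.57 ± 0.06 (adjusted p = 8.27e-06) and Psmb4 of the beta ring at -0.48 ± 0.06 (adjusted p = 5.78e-05). Both genes above 0 as deposited belong to the immunoproteasome. Psmb9 had a difference of 2.30 ± 0.26 (adjusted p = 3.27e-05). Psmb8 had 1.75 ± 0.67 with an adjusted p of 0.05 at the threshold. In limma it missed the threshold without WT replicate 2 (adjusted p = 0.178), Usp17le OE replicate 1 (0.111), Usp17le OE replicate 2 (0.0714), Dux KD replicate 1 (0.121), Dux KD replicate 2 (0.077) or Usp17le OE-Dux KD replicate 2 (0.206).

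Genes that act beside the proteasome were taken from 4 lists. Among 19 genes listed as regulators of proteasome transcription, 15 rose and 1 fell in Dux KD against WT, 10 and 3 after scaling. In this comparison 51.4% of all genes tested rose and 10.7% fell, 28.0% and 25.7% after scaling. The list counts the symbol Nrf1, which is nuclear respiratory factor 1 and a gene other than Nfe2l1. Nfe2l1, which encodes NRF1, the factor that raises proteasome genes when proteolysis falls short, was 99.96 and 103 TPM in WT, 73.3 and 72.9 TPM in Usp17le OE, 156 and 167 TPM in Dux KD and 162 and 155 TPM for Usp17le OE-Dux KD. It was lower in Usp17le OE than in WT (-0.47 ± 0.05, adjusted p = 4.6e-06, -0.73 after scaling). In Dux KD against WT it rose as deposited (0.67 ± 0.05, adjusted p = 2.4e-07) and stood at 0.26 after scaling, but after length correction its value of 0.06 did not pass the limma test (adjusted p = 0.26). It was named after its values had been seen. Of the largest called changes that the rule for names takes from each comparison, the first belong to its relative Nfe2l3, in Usp17le OE against WT (-1.98 ± 0.27, adjusted p = 3.68e-05) and in Usp17le OE-Dux KD relative to Usp17le OE (2.71 ± 0.27, adjusted p = 2.52e-06), a fall and a rise. Nfe2l3 was near the lower limit of detection, at 1.43 and 1.86 TPM in WT, 0.408 and 0.278 TPM in Usp17le OE and 2.61 and 2.94 TPM for Usp17le OE-Dux KD. Within the list, the largest rise was that of the ubiquitin ligase subunit Fbxw7 in Usp17le OE against WT (1.50 ± 0.10, adjusted p = 8.05e-08), that of Keap1, the adaptor that turns over NRF2, in Dux KD against WT (1.25 ± 0.10, adjusted p = 4.36e-07) and that of Nfyc, a subunit of the factor NF-Y, in Usp17le OE-Dux KD against WT (1.67 ± 0.07, adjusted p = 1.26e-09). These values are as deposited. Keap1 is 4470 bases long, and in Dux KD against WT the length bin at 4390.5 bases had a median of 0.61.

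The list of ubiquitin, its activating enzymes and delivery factors had 20 genes tested. In Usp17le OE against WT 7 rose and 9 fell (4 and 13 after scaling), and in Dux KD against WT 17 rose and 2 fell (13 and 6 after scaling). For this list and the next ones, the shares of all genes tested that rose and fell were 45.5% and 20.9% in Usp17le OE (33.0% and 32.9% after scaling) and 51.4% and 10.7% in Dux KD (28.0% and 25.7% after scaling). The shuttle factor Ubqln2 rose in both (0.90 ± 0.09, adjusted p = 1.41e-06, and 1.24 ± 0.09, adjusted p = 1.18e-07). Rps27a, which encodes a ubiquitin fusion with a ribosomal protein, fell in Dux KD (-1.08 ± 0.06, adjusted p = 4.12e-08). These values are as deposited. Rps27a is 821 bases long, and in Dux KD the length bins at 723 and 954 bases had medians of -0.39 and -0.15. Ubqln2 is 3327 bases long, and the bin at 3278 bases had a median of 0.49 there. Of 12 assembly and associated factors outside the Psm names, 8 rose in Usp17le OE as deposited (4 rose and 4 fell after scaling, near the background), led by Zfand2a, a heat- and arsenite-induced proteasome partner (1.72 ± 0.12, adjusted p = 1.06e-07). In Dux KD 9 rose and 2 fell (7 and 3 after scaling), with Zfand5, which stimulates the 26S proteasome, at 1.04 ± 0.08 (adjusted p = 3.49e-07, 0.64 after scaling). Zfand5 is 7385 bases long, and the length bin at 7078.5 bases had a median of 0.66 there. Shfm1 had the largest fall (-0.71 ± 0.11, adjusted p = 0.000528). It is 491 bases long, and the bins at 398 and 723 bases had medians of -0.75 and -0.39. Of 15 genes of antigen presentation and interferon, 5 rose and 3 fell in Usp17le OE (3 and 5 after scaling), and 6 rose and 4 fell in Dux KD (2 and 5 after scaling). In that list the peptidase Erap1 rose in Usp17le OE (1.41 ± 0.35, adjusted p = 0.00335), and the chemokine gene Cxcl10, induced by interferon, fell in Dux KD (-1.82 ± 0.27, adjusted p = 6.29e-05). Stat2 had the largest rise of the list in Dux KD (0.97 ± 0.09, adjusted p = 1.75e-06). It is 4394 bases long, and the length bin at 4390.5 bases had a median of 0.61 there. Erap1 and Cxcl10 were low: Erap1 was 0.452 and 0.468 TPM in WT and 1.24 and 1.55 TPM in Usp17le OE. Cxcl10 was 2.69 and 2.78 TPM in WT and 0.752 and 0.654 TPM in Dux KD.

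NRF1 binds antioxidant response elements (ARE), and promoters were searched for the ARE core TGACNNNGC on both strands, in RefSeq windows of 250 bases before to 50 after the start site (GRCm38.p6). The core was found for 6 of the 41 rows with a promoter (14.6%), against 1858 of 10910 tested genes with one. In the 20S core 2 of 11 had it (Psmb5 and Psmb6) and in the 19S core 2 of 14 (Psmc6 and Psmd12), and Psmd9 and Psme4 also had it. The 4 core genes are shown because they match 1 pattern, with different letters at its N positions, and differed in response: in Dux KD against WT Psmb6 and Psmc6 fell, Psmd12 rose (0.48, adjusted p = 2.22e-06; 0.07 after scaling) and Psmb5 did not pass the test as deposited. A match says only that these letters are in the window. The 250 bases before the start are printed 5′ to 3′ in the direction of transcription, with the match in capitals. The windows are chr14:54617996-54618245 (minus strand) for Psmb5, chr11:70525107-70525356 (plus strand) for Psmb6, chr14:45329574-45329823 (plus strand) for Psmc6 and chr11:107479278-107479527 (plus strand) for Psmd12.
Psmb5: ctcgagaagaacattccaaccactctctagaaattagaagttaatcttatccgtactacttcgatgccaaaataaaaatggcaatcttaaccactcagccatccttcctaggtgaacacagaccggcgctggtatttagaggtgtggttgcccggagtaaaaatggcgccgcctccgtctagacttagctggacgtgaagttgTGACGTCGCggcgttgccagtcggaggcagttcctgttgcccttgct
Psmb6: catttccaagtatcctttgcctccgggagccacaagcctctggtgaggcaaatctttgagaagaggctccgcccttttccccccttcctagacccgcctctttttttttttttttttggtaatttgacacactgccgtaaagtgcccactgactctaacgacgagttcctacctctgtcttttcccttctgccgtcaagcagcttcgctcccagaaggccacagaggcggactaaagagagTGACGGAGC
Psmc6: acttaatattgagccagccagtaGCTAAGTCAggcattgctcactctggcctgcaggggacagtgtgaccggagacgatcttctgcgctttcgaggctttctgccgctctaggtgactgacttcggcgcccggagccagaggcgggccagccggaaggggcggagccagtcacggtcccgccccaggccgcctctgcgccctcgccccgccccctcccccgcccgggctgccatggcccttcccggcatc
Psmd12: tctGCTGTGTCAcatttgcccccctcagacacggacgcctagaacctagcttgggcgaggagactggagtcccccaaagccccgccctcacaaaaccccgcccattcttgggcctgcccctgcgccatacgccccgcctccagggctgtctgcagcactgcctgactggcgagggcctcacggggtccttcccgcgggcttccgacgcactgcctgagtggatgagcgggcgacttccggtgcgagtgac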

How the data were processed

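RNA was extracted from the cells with an RNeasy kit and sequenced as Illumina libraries. Per the labels and the methods of the study, the authors ran Trim Galore, mapped the reads on mm10 by HISAT2 and used featureCounts for unique alignments at default settings, which ignore strand. They deposited TPM with gene lengths for 24370 symbols. Versions and the annotation release are not given in the sources used here. Multiplying TPM by length returned whole reads in 100% of entries (within 0.01), and 27 symbols turned into dates were kept but not named. Depth was 32188285 to 50457228 reads, and replicates correlated with r of 0.984 to 0.987 across genes.

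Members and gene lists were chosen with earlier results of these data known. Values were taken as log2(TPM + 0.1), and 14706 genes that reached 0.5 TPM in 2 or more of the 10 libraries entered 1 limma 3.58.1 fit (statmod 1.5.0 under R 4.3.3) of group means (5 residual degrees of freedom) and the trend and robust options (median prior degrees of freedom 7.06). There were 7 comparisons between groups and 1 difference of effects. Named with values were the catalytic subunits, Psmd14, every tissue-specific subunit, the extremes of each class, members called against their class, and the largest called changes of each pathway list. Other genes named were chosen after their values were seen. Alternatives were a pseudocount of 1, no filter, median-ratio scaling, length correction (lowess, span 0.3, per library), no trend or robust step, only the groups compared, a replicate block, voom on recovered reads and each library left out. A fit without the libraries labelled Dux KD-Usp17le OE was chosen after seeing the data. The fit was tested on simulated data.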

Additional observations from a re-analysis of the deposited data

Results flagged for a closer look

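The change on adding the Dux hairpin differed between cells with and without the Usp17le plasmid for 12 of the members named, by limma's test of the difference itself (values in log2 ± SE, the change in overexpressing cells minus the change in the others, with Benjamini-Hochberg adjusted p over all genes tested). Some of these were named because they hold the extreme values of this same difference, so the count of 12 is no measure of how common it is. In the 20S core the difference was -0.23 ± 0.06 for Psma4 (adjusted p = 0.00767), -0.57 ± 0.06 for Psma6 (8.27e-06), -0.48 ± 0.06 for Psmb4 (5.78e-05), -0.32 ± 0.06 for Psmb6 (0.00069) and -0.19 ± 0.05 for Psmb7 (0.0127). The Psmb7 result missed the threshold without WT replicate 2 (adjusted p = 0.0586), and after scaling neither Psma4 (-0.12, adjusted p = 0.0863) nor Psmb7 (-0.09, adjusted p = 0.168) passed. In the 19S cap it was -0.80 ± 0.06 for Psmc4 (1.02e-06), -0.61 ± 0.07 for Psmd12 (2.04e-05) and -0.36 ± 0.07 for Psmd14 (0.00182). For the activator gene Psme4 it was -0.61 ± 0.10 (0.000498). The change without the plasmid starts from WT and so includes a first transfection and selection, which the other change does not. These differences cannot be told apart from that.

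Among the tissue-specific 20S genes, Psma8 had -0.43 ± 0.12 (adjusted p = 0.0117), whereas Psmb9 had 2.30 ± 0.26 (3.27e-05) and Psmb8 1.75 ± 0.67 (0.05). Psmb8 was measured with at most 64 reads in a library. The median over all genes tested was -0.11, and 28.2% of them were below 0 and 15.8% above 0 at an adjusted p under 0.05. With 2 libraries a group, no sample could be tested as standing apart from its group.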

How the results depend on the processing

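Counts of members that rose or fell depended most on the scaling, given here as higher and lower, with "over" for "compared with". After median-ratio scaling, 30 and 6 as deposited became 9 and 21 in Usp17le OE over WT, 20 and 17 became 9 and 33 in Dux KD over WT, the 12 higher in Usp17le OE-Dux KD over Usp17le OE became 6, 3 and 10 became 6 and 2 in Dux KD-Usp17le OE over Dux KD, 17 and 20 became 3 and 41 in Usp17le OE-Dux KD over WT, 16 and 15 became 6 and 34 in Dux KD-Usp17le OE over WT, and 15 and 8 became 36 and 0 in Dux KD-Usp17le OE over Usp17le OE-Dux KD (limma, 0 also at an unadjusted p under 0.05). With voom on recovered reads the counts in this order were 12 and 23, 9 and 34, 6 higher, 8 higher, 4 and 41, 6 and 34, and 39 and 0 (2 at an unadjusted p under 0.05). Length correction gave 15 and 13 in Usp17le OE over WT, 11 higher in Usp17le OE-Dux KD over WT and 5 lower in Dux KD-Usp17le OE over Usp17le OE-Dux KD. With neither trend nor robust, limma called 0 and 0 in Dux KD-Usp17le OE over Dux KD (5 and 12 at an unadjusted p under 0.05), where leaving out 1 library gave 0 to 3 higher and 0 to 13 lower.

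The sign turned for Psmb6 in Usp17le OE over WT (-0.0835 after scaling, -0.0838 in voom), for Psmd14 there (-0.0966 after scaling, -0.012 after length correction, -0.0957 in voom), for Psmb7 (0.0666) and Psmb5 (0.0605) in Usp17le OE-Dux KD over Usp17le OE after length correction and for Psmd5 there (-0.0283 after scaling, -0.0264 in voom). It also turned for Psmb3 (-0.42, -0.42) and Psmg2 (-0.27, -0.27) in Usp17le OE-Dux KD over WT and for Psmc4 (0.0554, 0.0546) in Dux KD-Usp17le OE over Usp17le OE-Dux KD, after scaling and in voom, and for Psme4 in that comparison after length correction (0.0353). The cause of these changes was not tested. Of 99 called values of named members, 83 kept their call whichever library was left out. With the replicate block all 99 kept it, and 19 instead of 20 members were higher in Dux KD over WT, but same-numbered libraries did not deviate together (correlations -0.051 to 0.048), so the numbers do not pair the samples. Without the libraries labelled Dux KD-Usp17le OE the counts were 29 and 6 in Usp17le OE over WT, 20 and 16 in Dux KD over WT and 12 and 29 in Usp17le OE-Dux KD over Usp17le OE. Depth limits Psmb8, which had 6 to 64 reads in a library, and TPM cannot show whether proteasome transcripts per cell changed.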
